A study of Ovis aries with 7 samples.

Results

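The potassium channel genes of the sheep striatum were the 67 features, of 26479 in the count matrices, whose symbol began with KCNA, KCNB, KCNC, KCND, KCNH, KCNJ, KCNK, KCNMA, KCNN, KCNQ, KCNT or KCNV and held a digit. They comprised 8 KCNA, 3 KCNAB, 2 KCNB, 4 KCNC, 3 KCND, 7 KCNH, 14 KCNJ, 14 KCNK, 1 KCNMA, 4 KCNN, 3 KCNQ, 2 KCNT and 2 KCNV genes. Single nuclei RNA-seq had been performed on frozen anterior striatum of sheep aged 5 years, in 3 OVT73 and 4 control libraries. OVT73 sheep carry a full-length human huntingtin cDNA with an expanded CAG repeat, driven by a segment of the upstream human HTT sequence, and the controls were wild-type animals of the same flock. Each OVT73 library pooled nuclei of 2 sheep, control replicates 1 and 2 came from 1 sheep each and control replicates 3 and 4 from 2 sheep each, so the library was the replicate. The comparisons asked which channel genes set each neuronal and glial class apart, and which differed between OVT73 and control within a class.

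Potassium channels let potassium leave the cell and so return the membrane towards rest. Voltage-gated subunits (KCNA, KCNB, KCNC, KCND, KCNH, KCNQ) open on depolarisation, KCNV subunits modify them, and KCNAB genes encode cytoplasmic beta subunits. Inward rectifiers (KCNJ) and two-pore channels (KCNK) hold the resting potential, KCNMA1 and KCNN channels open with intracellular calcium, and KCNT channels with sodium. Medium spiny neurons (MSNs), the projection neurons of the striatum, are known for a hyperpolarised rest held by inward rectifiers and for A-type currents of the KCND family. Fast-spiking parvalbumin interneurons are known for KCNC channels.

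The 7 libraries kept 3102 to 8340 nuclei each (32599 in all), with medians of 1860 to 2562 unique molecular identifiers (UMIs) per nucleus. These medians were 2221 to 2562 in OVT73 and 1860 to 2170 in control libraries, without overlap. Channel genes held 1.02% to 1.27% of the UMIs of a library, and pairs of libraries had 2 to 20 barcodes in common. The human HTT feature added to the reference was counted 342, 63 and 27 times in OVT73 replicates 1 to 3, and 1, 2, 5 and 6 times in control replicates 1 to 4. Nuclei were clustered without the channel genes and clusters were named from marker lists, which gave 12 classes, each called after the cell type its markers name with "-like" added (D1 and D2 stand for the D1 and D2 MSN-like classes), and left 2638 nuclei unnamed. DRD2 stood at 48.1 ± 15.8 CPM (UMIs scaled to the total of the class in each library, mean ± SD, n = 7 libraries, as for all levels here) in the D2 MSN-like class against 2.35 ± 1.32 CPM in the D1 class, and TAC1 at 229 ± 94.2 CPM in D1 against 14.5 ± 4.80 CPM in D2. FOXP2 stood at 1909 ± 145 CPM in eccentric MSN-like nuclei and 77.3 ± 21.3 CPM in D1. In PV/Th interneuron-like nuclei KIT stood at 363 ± 84.1 CPM and PVALB at 26.9 ± 13.9 CPM, while TH was low at 2.34 ± 2.14 CPM. Of each class's own marker list, 10 of 10 (astrocyte), 9 of 9 (oligodendrocyte), 10 of 10 (neuroblast), 10 of 11 (microglia), 7 of 9 (oligodendrocyte precursor, OPC), 5 of 9 (PV/Th), 4 of 7 (D2), 3 of 7 (eccentric) and 2 of 6 (D1) were highest in that class.

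Transcripts of MSN genes were also counted in other nuclei. The MSN genes RGS9, PDE10A, PPP1R1B and PDE1B stood at a median of 7.46% of their MSN level in oligodendrocyte-like, 7.62% in OPC-like, 10.1% in microglia-like, 13.2% in neuroblast-like and 15.7% in astrocyte-like nuclei. The median was 18.9% in PV/Th, 16.2% in SST/NPY and 13.4% in cholinergic interneuron-like nuclei, and 15.0% in endothelial-like nuclei. Whether these values reflect free neuronal RNA or expression in those nuclei was not tested. They are no background level that holds for each channel gene. KCNH4, at 88.7 CPM in D1, had 0 UMIs in microglia-like nuclei. KCNK2, at 180 CPM in D1 and 245 CPM in D2, stood at 4.44 and 2.16 CPM in the DTHD1-led and SLC1A2-led astrocyte-like clusters. Levels of MSN channel genes outside MSN-like nuclei, interneuron-like nuclei included, are to be read with this limit. Levels are shares of a class's UMIs, so a lower value and a larger share of other transcripts cannot be told apart.

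Of the 67 channel genes, 38 averaged at least 10 CPM in 1 or more of the 9 classes with enough nuclei to test, and 17 stayed under 1 CPM in the class where they were highest. Channel genes made up 1.54% ± 0.0664 of the UMIs of D1 and 1.54% ± 0.0765 of those of D2 MSN-like nuclei, 1.25% ± 0.0971 in eccentric MSN-like, 1.14% ± 0.0677 in OPC-like, 0.981% ± 0.0513 in PV/Th interneuron-like and 0.792% ± 0.210 in neuroblast-like nuclei. The share was 0.314% ± 0.0687 in astrocyte-like, 0.147% ± 0.0134 in oligodendrocyte-like and 0.0538% ± 0.0198 in microglia-like nuclei. KCND2, an A-type channel gene, ran from 80.7 CPM in oligodendrocyte-like nuclei to 9172 CPM in D1. It stood at 8910 CPM in D2, 5574 CPM in eccentric MSN-like, 4916 CPM in OPC-like and 2042 CPM in PV/Th interneuron-like nuclei. Most of the channel share in D1 and D2 was therefore KCND2. The order of these classes by share rests largely on that gene, and shares without it are not given. Some genes known from striatal or glial physiology were barely counted: KCNJ4, an inward rectifier of striatal neurons, had 23 UMIs in D1 (0.375 CPM), the glial rectifier KCNJ16 had 1 UMI in astrocyte-like nuclei, and the sodium-activated KCNT1 stood at no more than 0.763 CPM in any tested class. KCNA2, an axonal delayed rectifier, was highest of the tested classes in PV/Th interneuron-like nuclei at 8.14 ± 4.13 CPM.

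**Figure D1:**
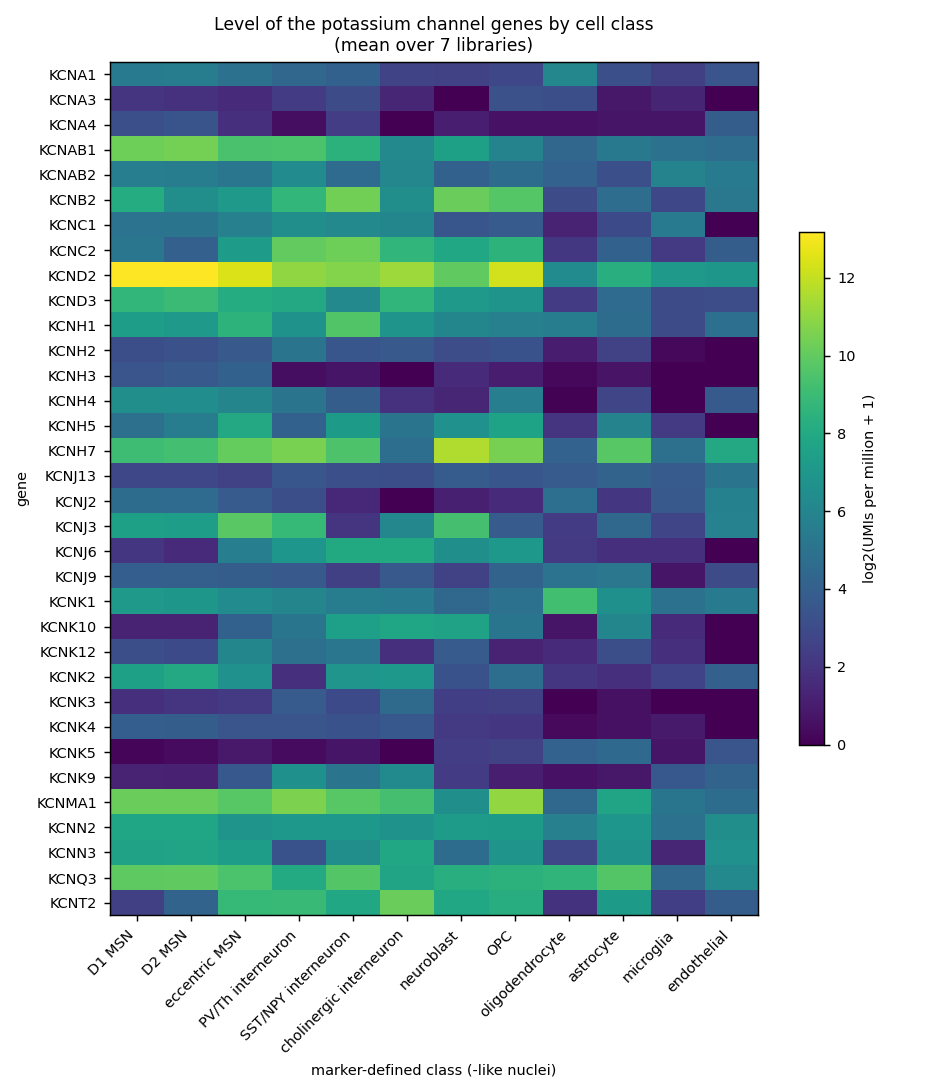
Heatmap of channel genes that passed the count filter (rows; a few are not shown) in 12 marker-defined classes (columns), coloured by log2(CPM + 1) of the mean over 7 libraries. KCND2 is brightest in the D1 and D2 MSN-like columns, and most rows are dark in the microglia-like column.

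Each tested class was set against the mean of the 8 others in an edgeR quasi-likelihood fit with the library as a block. A gene was called at a Benjamini-Hochberg adjusted p under 0.05 over 11303 genes and a log2 fold change of at least 1 in size, and of the 67 channel genes 38 passed the filter on low counts. The reference is a mean of log levels, so a gene can be called in several classes.

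In D1 MSN-like nuclei 24 of the 38 channel genes tested were higher than the mean of the other classes and 5 were lower, beside 15.8% and 11.4% of all genes, and the median log2 fold change of the channel genes was 1.298 beside -0.02 over all genes. In the D2 class 23 of the 38 channel genes tested were higher than the mean of the other classes and 6 were lower, beside 15.6% and 11.5% of all genes, with a median of 1.24 beside -0.03. Both KCND genes tested, both KCNN genes and KCNMA1 were higher in each. KCNH4, a channel of the ether-à-go-go superfamily, led the D1 class at 88.7 ± 32.7 CPM (log2 fold change 4.15 ± 0.14 SE, edgeR adjusted p = 5.6e-33) and stood at 86.7 ± 29.3 CPM in D2 (4.12 ± 0.14). KCNK2, a two-pore channel of the TREK group, led the D2 class at 245 ± 32.3 CPM (4.63 ± 0.11, adjusted p = 3.9e-43) and stood at 179.7 ± 39.9 CPM in D1 (4.10 ± 0.11). KCNH3, a close relative of KCNH4, was called in both at low levels of 9.94 ± 2.84 CPM (3.60 ± 0.20) and 11.6 ± 3.03 CPM (3.86 ± 0.20). The reference for these 2 KCNH genes holds classes with almost no counts. KCNH4 had 0 UMIs in microglia-like nuclei, and KCNH3 had 0 there and 1 in PV/Th interneuron-like nuclei. On the linear scale the other classes averaged 29.5 CPM of KCNH4 and 3.99 CPM of KCNH3 beside D1, and 29.7 and 3.79 CPM beside D2. Their fold changes are therefore fitted values.

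Among genes known from MSN physiology, the A-type gene KCND3 stood at 414 ± 84.3 CPM in D1 and 509.9 ± 89.7 CPM in D2, and the beta subunit KCNAB1 at 1239.7 ± 153 and 1376 ± 137 CPM. KCNQ3, an M-current gene, stood at 948 and 982 CPM. The calcium-activated KCNN2 stood at 211 and 211 CPM and KCNN3 at 192 and 203 CPM. All of these were called higher in both classes, as was the A-type gene KCNA4 at 8.43 and 9.53 CPM. The strong inward rectifier KCNJ2 was called too, at 24.3 ± 6.06 and 23.2 ± 6.25 CPM, but its mean over the tested classes was highest in oligodendrocyte-like nuclei at 26.7 ± 5.17 CPM, with overlapping libraries. KCNQ3 was not particular to MSN-like nuclei either, with summed levels of 829 and 893 CPM in the DTHD1-led and SLC1A2-led astrocyte-like clusters. The genes lower in D1 were KCNT2, KCNK5, KCNK10, KCNJ6 and KCNK9, to which D2 added KCNC2.

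D2 and D1 MSN-like nuclei were compared directly, with the library as a block. Of 41 channel genes 1 was higher in D2 and 2 were lower, beside 0.441% and 0.390% of 11785 genes. The delayed rectifier gene KCNB2 stood in D1 at 331, 284 and 282 CPM in OVT73 replicates 1 to 3 and 316, 243, 288 and 269.6 CPM in control replicates 1 to 4. In D2 it stood at 111, 89.3 and 81.9 CPM in OVT73 and 107.2, 46.5, 107.2 and 95.9 CPM in control. Every D2 value lay below every D1 value, and the log2 fold change was -1.66 ± 0.10 (edgeR adjusted p = 5.1e-05).

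KCNC2, which encodes a fast delayed rectifier, stood at 15.6 ± 7.72 CPM in D2 and 34.5 ± 11.8 CPM in D1 (log2 fold change -1.24 ± 0.17, edgeR adjusted p = 0.0032). Without the library block this call was lost (-1.16, adjusted p = 0.075). KCNT2, the sodium-activated channel gene, was the gene higher in D2. It stood there at 10.4, 19.1 and 13.2 CPM in OVT73 and 21.9, 19.4, 17.6 and 18.3 CPM in control, against 1.76, 3.03 and 2.59 CPM and 2.81, 11.5, 7.09 and 3.67 CPM in D1. D2 was above D1 in 7 of 7 libraries (2.13 ± 0.27, adjusted p = 0.0024). KCNH5, an ether-à-go-go channel, passed the adjusted p (1.3e-07) but not the fold threshold, at 46.3 ± 16.4 CPM in D2 and 28.5 ± 8.72 CPM in D1 (0.68 ± 0.07).

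Eccentric MSN-like nuclei (319 nuclei, at least 25 per library) are a small group of spiny neurons with a profile of their own. In them 27 of the 38 channel genes tested were higher than the mean of the other classes and 0 were lower, beside 14.0% and 9.10% of all genes, with a median log2 fold change of 1.81 beside -0.06. All 6 KCNH genes tested were among those higher. KCNJ3, a G-protein-gated inward rectifier, led at 894 ± 89.7 CPM (4.397 ± 0.14), followed by KCNH3 at 15.9 ± 6.09 CPM (4.26 ± 0.27) and KCNT2 at 454 ± 95.9 CPM (3.82 ± 0.14). On the linear scale the mean of KCNH3 over the other classes was 3.25 CPM. Cholinergic interneuron-like nuclei, too few to test, held more KCNT2, at 1067 CPM from summed counts.

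Against the D1 and D2 classes alone, 9 of 42 channel genes were higher in eccentric MSN-like nuclei and 3 were lower, beside 5.22% and 5.33% of 11726 genes. The eccentric libraries held 329.7 to 567 CPM of KCNT2, while no D1 or D2 library exceeded 21.9 CPM (log2 fold change 5.89 ± 0.22). KCNJ6, another G-protein-gated rectifier, stood at 48.9 ± 22.9 CPM against 3.22 CPM in D1 and 2.02 CPM in D2 (4.27 ± 0.22). KCNK12, a two-pore subunit that gives no current by itself, stood at 64.3 ± 21.2 CPM against 7.89 and 6.68 CPM (3.12 ± 0.17). The TREK-group gene KCNK10 was uneven, with 0 to 52.2 CPM per library (3.24 ± 0.36).

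Among the genes lower than in D1 and D2 were KCNA4 (2.42 ± 1.16 CPM, -1.79 ± 0.28) and KCNK2 (99.8 ± 41.7 CPM, -1.22 ± 0.12). With the channel genes kept in the clustering, the calls of KCNJ6 (1.47, edgeR adjusted p = 0.073), KCNK10 (0.21, adjusted p = 0.83) and KCNK2 (-0.93, under the fold threshold) were lost.

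PV/Th interneuron-like nuclei (282 nuclei, at least 25 per library) are, by their markers, local inhibitory neurons. In them 23 of the 38 channel genes tested were higher than the mean of the other classes and 4 were lower, beside 15.0% and 10.1% of all genes, with a median log2 fold change of 1.55 beside 0.01. KCNK9, the acid-sensitive two-pore channel TASK-3, led with 70.4 to 148 CPM per library (5.24 ± 0.17), 8.37 times the mean of the next of the tested classes, with no overlap. Of the classes too small to test, cholinergic interneuron-like nuclei held 81.2 CPM (66.9 to 97.6) of KCNK9 from summed counts, with an exact Poisson 95% interval. KCNC2 held 861 to 1262 CPM per library (4.94 ± 0.12), above the OPC-like class, the next of the tested classes, at 291 to 424 CPM. Outside the tested classes its summed level was 1243 CPM (1194 to 1293) in SST/NPY and 352 CPM (321 to 385) in cholinergic interneuron-like nuclei. KCNT2 stood at 473 ± 88.2 CPM (3.60 ± 0.15) and KCNC1, another fast delayed rectifier gene, at 91.1 ± 9.16 CPM (2.47 ± 0.11). The summed level of KCNT2 was higher in cholinergic interneuron-like nuclei, at 1067 CPM (1013 to 1122), and lower in SST/NPY interneuron-like nuclei, at 233 CPM (212 to 255).

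Against the D1 and D2 classes, 14 of 42 channel genes were higher in PV/Th interneuron-like nuclei and 16 were lower, beside 15.0% and 15.4% of 12057 genes, with a median log2 fold change of -0.57 beside 0.01. KCNK9 (5.80 ± 0.19, from 1.43 CPM in D1 and 1.34 CPM in D2), KCNT2 (5.64 ± 0.22), KCNJ6 (119.8 ± 17.2 CPM, 5.26 ± 0.24) and KCNC2 (5.22 ± 0.16) had the largest fold changes among those higher. KCNK2 was lower, at 2.39 ± 1.99 CPM from 9 UMIs against the levels of the MSN-like classes above (-7.06 ± 0.19). The calcium-activated KCNN3 stood at 8.80 ± 3.33 CPM from 40 UMIs (-4.77 ± 0.12). These SEs of KCNK2 and KCNN3 are from the fit and are narrower than the counting error of 9 and 40 UMIs.

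KCND2 was lower as well, at 2042 ± 229 CPM (-2.46 ± 0.06). KCNH3 had 1 UMI in PV/Th interneuron-like nuclei, in control replicate 2, which put it 48.8 times under the mean of the D1 and D2 levels, with an exact Poisson 95% interval of 8.76 to 1929. KCNV1, a modifier of other voltage-gated subunits, had 0 UMIs in PV/Th interneuron-like nuclei against 6.14 CPM in D1 and 7.03 CPM in D2, at least 9.96-fold lower with 3 UMIs over the class as the floor. At a clustering resolution of 0.6, where the PV/Th cluster held 664 nuclei, the calls of KCNV1 (-0.57, edgeR adjusted p = 0.26) and KCNH3 (-0.58, adjusted p = 0.094) were lost.

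**Figure D2:**
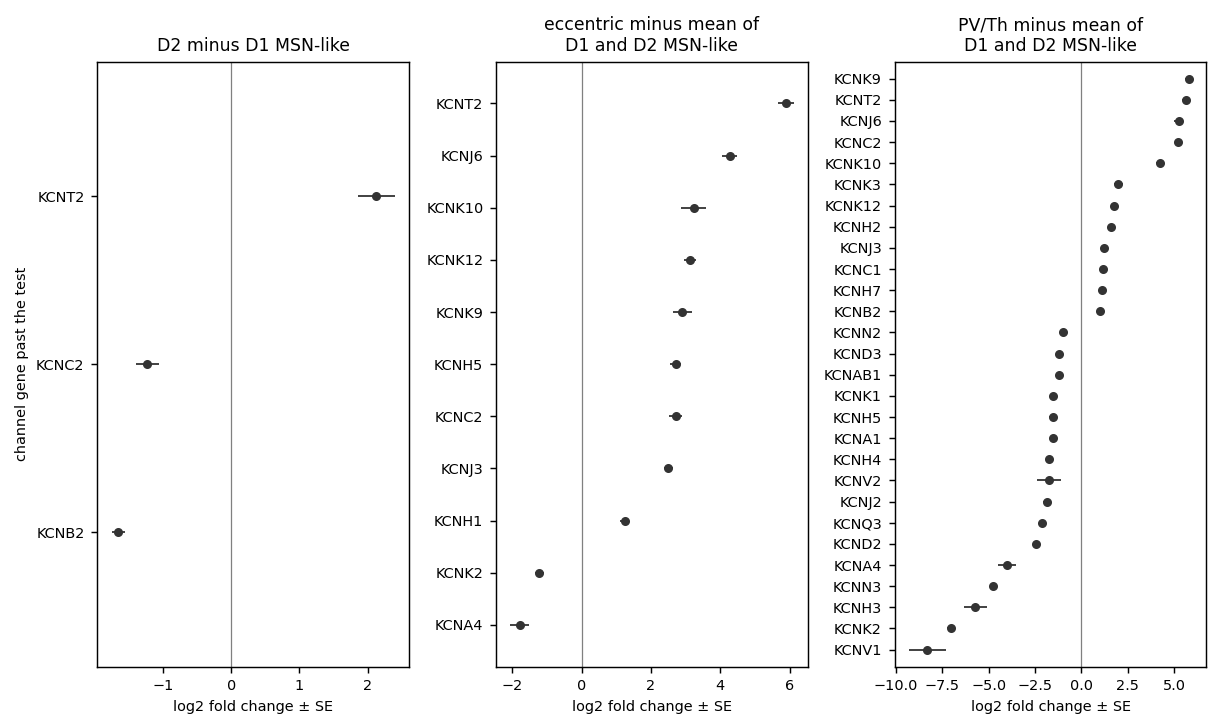
Log2 fold change with its SE (x axis) of each channel gene called (y axis) for D2 over D1 MSN-like nuclei, eccentric over both of these classes, and PV/Th interneuron-like over both. The first comparison has 3 genes, and some genes of the others are not shown. In PV/Th interneuron-like nuclei KCNV1 had 0, KCNH3 1, KCNA4 3 and KCNV2 3 UMIs, so their points are fitted values and no measured folds. Bars are SEs of the fit and can understate counting error for genes with few UMIs, such as KCNK2 with 9.

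In neuroblast-like nuclei, immature neurons by their markers, 11 of the 38 channel genes tested were higher than the mean of the other classes and 10 were lower, beside 11.1% and 14.5% of all genes, with a median log2 fold change of 0.29 beside -0.09. KCNK10 led with 132 to 285 CPM per library (4.59 ± 0.21), above all libraries of the astrocyte-like class, the next of the tested classes at 63.9 ± 28.9 CPM. Outside the tested classes its summed level was 224 CPM (199.9 to 250.4) in cholinergic and 164 CPM (147 to 183) in SST/NPY interneuron-like nuclei. KCNB2 stood at 1130.1 ± 642 CPM (3.60 ± 0.16) and KCNJ3 at 617 ± 391 CPM (3.26 ± 0.18), with a wide spread between libraries that held as few as 46 nuclei of this class. The summed level of KCNB2 in SST/NPY interneuron-like nuclei was above this mean, at 1360 CPM (1308 to 1412). KCNH7, an ERG-type channel gene, was highest here of the tested classes at 2080.5 to 3809 CPM per library, above the 1264 to 1670.0 CPM of PV/Th interneuron-like nuclei.

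Oligodendrocyte precursors are glia known to receive synapses. In OPC-like nuclei 14 of the 38 channel genes tested were higher than the mean of the other classes and 8 were lower, beside 15.5% and 7.54% of all genes, with a median log2 fold change of 0.55 beside 0.02. KCNJ6 led at 128 ± 19.6 CPM (3.87 ± 0.17), and its libraries overlapped those of PV/Th interneuron-like nuclei. Its summed level was higher in SST/NPY and cholinergic interneuron-like nuclei, at 261 CPM (239 to 285) and 234 CPM (209 to 261). KCNB2 stood at 819 ± 78.6 CPM (3.47 ± 0.14) and KCNC2 at 364 ± 51.8 CPM (3.42 ± 0.13). Both had higher summed levels in SST/NPY interneuron-like nuclei, at 1360 CPM (1308 to 1412) and 1243 CPM (1194 to 1293). KCNMA1, the large-conductance calcium-activated channel gene, was highest in this class, of those tested, at 1903 to 2300.2 CPM per library, with no overlap with the 1324 to 1795 CPM of PV/Th interneuron-like nuclei. KCND2 stood at 4916 ± 558 CPM here.

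In oligodendrocyte-like nuclei, the myelinating glia, 6 of the 38 channel genes tested were higher than the mean of the other classes and 25 were lower, beside 15.1% and 19.2% of all genes, with a median log2 fold change of -2.56 beside 0.06. KCNK1, the two-pore channel TWIK-1, stood at 594, 579.6 and 591 CPM in OVT73 replicates 1 to 3 and 614, 532, 644 and 560.5 CPM in control replicates 1 to 4 (3.498 ± 0.11). The mean was 4.34 times that of D1 MSN-like nuclei, the next of the tested classes, whose libraries held at most 168 CPM. KCNK5, an alkaline-activated two-pore channel, led by fold change at 16.5 ± 1.87 CPM (3.84 ± 0.17). KCNA1, a low-threshold axonal channel, stood at 68.4 ± 14.8 CPM (2.43 ± 0.11), overlapping with D2 at 46.9 ± 14.4 CPM. The remaining genes higher were KCNA3, KCNJ2 and KCNJ9.

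In astrocyte-like nuclei 7 of the 38 channel genes tested were higher than the mean of the other classes and 18 were lower, beside 17.5% and 8.79% of all genes, with a median log2 fold change of -1.20 beside 0.03. KCNK5 led here too, at 14.8 to 27.6 CPM per library (3.97 ± 0.22), overlapping with the 13.7 to 18.5 CPM of oligodendrocyte-like nuclei. KCNK10 stood at 63.9 ± 28.9 CPM (2.81 ± 0.19). The class had a DTHD1-led and an SLC1A2-led cluster, and KCNK10 stood at 132 CPM in the former and 11.8 CPM in the latter. KCNH7 also differed between them, at 1805 and 46.3 CPM. Without the DTHD1-led cluster the KCNK10 call was lost (0.51, edgeR adjusted p = 0.26).

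In microglia-like nuclei 1 of the 38 channel genes tested was higher than the mean of the other classes and 30 were lower, beside 17.4% and 26.2% of all genes, with a median log2 fold change of -3.70 beside -0.04, or -3.28 with KCNH3, KCNH4 and KCNK3, which had 0 UMIs, placed at a floor of 3 UMIs. KCNH4 was at least 59.1-fold lower than the arithmetic mean of the other classes, 40.5 CPM. The floor values in the median of -3.28 also take such an arithmetic mean as reference, unlike the mean of log levels in the fit. The gene called higher was KCNK9, with 44 UMIs, at 4.78, 12.1 and 5.35 CPM in OVT73 and 8.34, 37.1, 4.66 and 6.92 CPM in control (1.33 ± 0.32, edgeR adjusted p = 0.00018). Control replicate 2 was far above the rest, and without it the log2 fold change was 0.79, under the threshold. On the linear scale its mean of 11.3 CPM was below the 14.4 CPM mean of the other classes, which PV/Th interneuron-like nuclei dominate. KCNK6, a weakly conducting two-pore channel gene that did not pass the count filter, stood at 10.3 CPM from 45 UMIs, against at most 0.551 CPM in the other tested classes. KCND1, which did not pass the filter either, was also highest here of the tested classes, at 10.6 ± 4.78 CPM. The next was the astrocyte-like class at 2.59 CPM, with overlapping libraries.

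**Figure D3:**
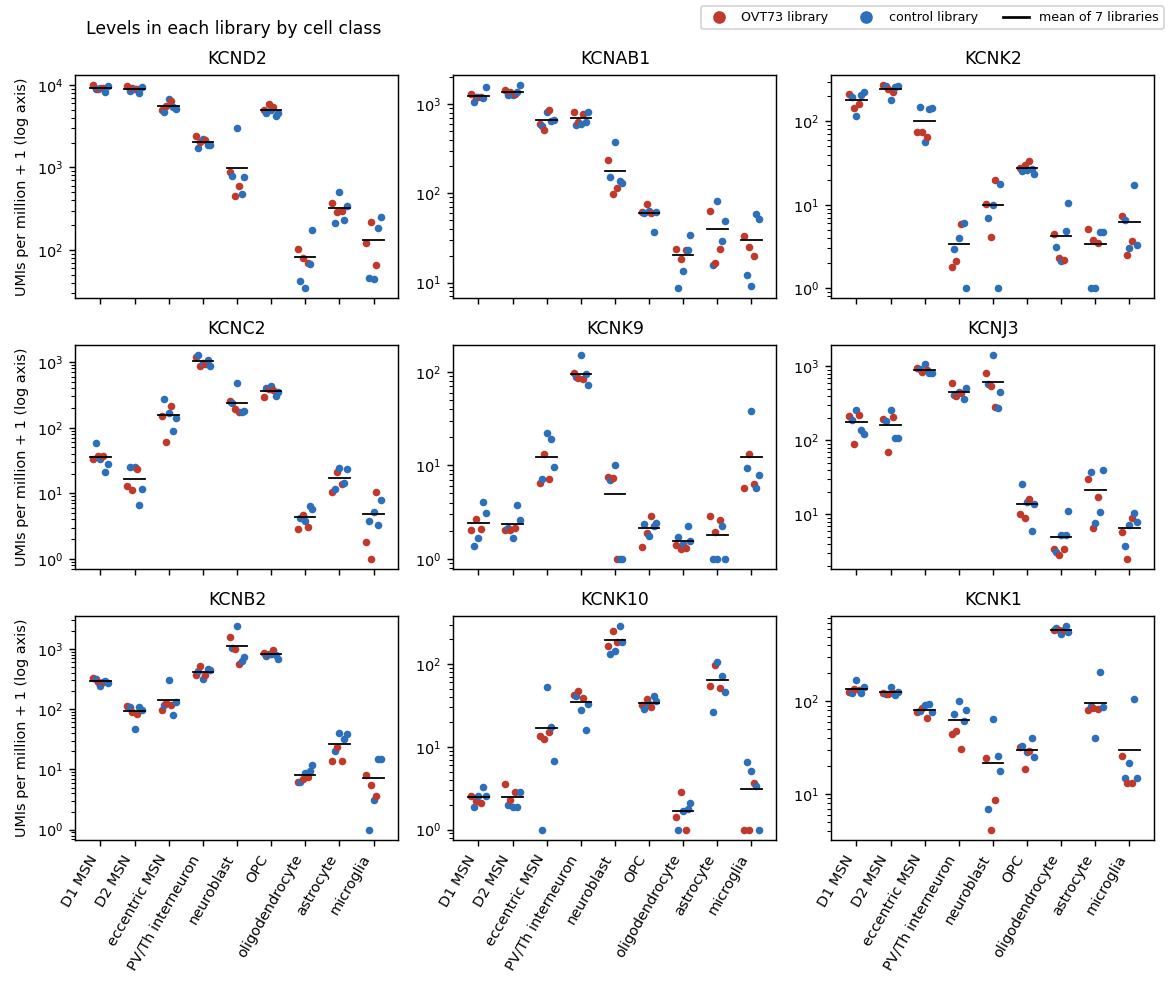
CPM + 1 on a log axis (y) of 9 channel genes in each of the 9 tested classes (x), with 1 point per library. KCNK9 and KCNC2 stand highest in PV/Th interneuron-like nuclei, KCNK1 in oligodendrocyte-like nuclei and KCNK10 in neuroblast-like nuclei.

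The other 3 named classes were too small to test, so their leading genes are given from summed counts with exact Poisson 95% intervals, which cover counting error only. In SST/NPY interneuron-like nuclei the ether-à-go-go gene KCNH1 stood at 755 CPM (717 to 795), 6.99 times the mean of the tested classes. In cholinergic interneuron-like nuclei the acid-sensitive KCNK3 stood at 24.4 CPM (16.9 to 34.1) from 34 UMIs, 6.94 times that mean. The higher ratios of KCNJ12 and KCNH6 there came from 2 and 3 UMIs. In endothelial-like nuclei KCNJ8, a pore subunit of vascular ATP-sensitive channels, stood at 27.5 CPM (5.67 to 80.3) from 3 UMIs, and KCNJ4 and KCNJ13 had 1 and 4 UMIs.

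Auxiliary subunits, which set the gating and traffic of these channels, were taken from a separate list of 28 genes, of which 13 entered the fit of all classes. In the D1 class 7 of them were higher and 2 lower, in D2 7 and 1, in eccentric MSN-like nuclei 6 and 1, in PV/Th interneuron-like nuclei 7 and 3 and in OPC-like nuclei 6 and 3. The counts were 3 and 3 in neuroblast-like, 2 and 4 in astrocyte-like, 1 and 11 in oligodendrocyte-like and 2 and 10 in microglia-like nuclei. Of all genes, 11.1% to 17.5% were higher and 7.54% to 26.2% lower, by class. The KCND partner KCNIP2 had a log2 fold change of 2.64 in D1 and 2.47 in D2, and the modifying subunit KCNG3 one of 4.32 and 4.27. KCNIP4, another KCND partner, stood at 8267 ± 3039.7 CPM in eccentric MSN-like, 1799.6 ± 606 CPM in D1 and 68.9 ± 57.7 CPM in PV/Th interneuron-like nuclei. Against the D1 and D2 classes, PV/Th interneuron-like nuclei were higher in 4 of 14 and lower in 7, beside the 15.0% and 15.4% of all genes above, the former being KCNS3 (7.26), KCNMB2 (4.67), KCNIP1 (3.84) and ABCC9 (2.97).

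OVT73 and control were compared within each class over the 7 libraries by edgeR, with a call at an adjusted p under 0.05. No channel gene was called in any of the 9 classes by edgeR, and 0 were called by DESeq2. Of all genes edgeR called 0% in 7 classes, 0.0111% in OPC-like and 0.0135% in eccentric MSN-like nuclei. Over all genes DESeq2 called 1 higher and 2 lower of 12364 in D1, and 3 and 2 of 11978 in D2. It called 3 and 6 of 8987 in OPC-like, 2 and 3 of 10513 in oligodendrocyte-like and 1 and 0 of 7404 in eccentric MSN-like nuclei. In the other classes DESeq2 called 0. The channel genes with an unadjusted p under 0.05, each count beside the share of all genes tested in that class at such a p, numbered 2 of 42 (all genes 4.06%) in D1, 0 of 41 (all genes 4.45%) in D2, 3 of 31 (all genes 7.2%) in eccentric MSN-like and 2 of 25 (all genes 5.67%) in PV/Th interneuron-like nuclei. The counts were 1 of 16 (all genes 3.94%) in neuroblast-like, 3 of 27 (all genes 6.63%) in OPC-like, 2 of 26 (all genes 5.27%) in oligodendrocyte-like, 4 of 21 (all genes 4.54%) in astrocyte-like and 0 of 9 (all genes 4.1%) in microglia-like nuclei. The median log2 fold change of the channel genes ran from -0.34 (neuroblast-like) to 0.09 (PV/Th), beside -0.03 to -0.01 over all genes. In D1, 39 of 42 channel genes were within 0.5 of 0 and in D2 38 of 41, with a median SE of 0.27 and 0.25. Of 86 tests of auxiliary genes over the classes, edgeR called 0, with 11 at an unadjusted p under 0.05, where all genes had 3.94% to 7.2% by class.

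**Figure D4:**
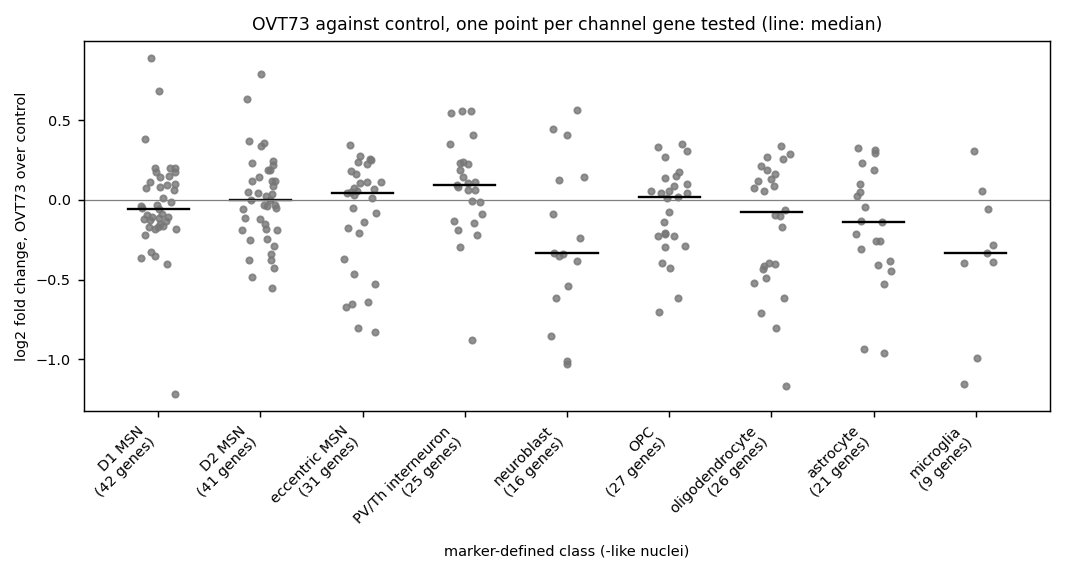
Log2 fold change of OVT73 over control (y axis) for each channel gene tested in each class (x axis), with 1 point per gene and a line at the median. Medians lie between -0.34 and 0.09.

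Among genes of MSN excitability, KCND2 had a log2 fold change of 0.14 ± 0.12 in D1 and 0.19 ± 0.10 in D2, KCNAB1 of 0.09 ± 0.14 and 0.09 ± 0.12, and KCNJ2 of -0.04 ± 0.22 and -0.04 ± 0.25. KCNH4, the leading gene of the D1 class, had -0.37 ± 0.32 and -0.38 ± 0.26, and the groups overlapped. In eccentric MSN-like nuclei its normalised levels were 39.1, 49.6 and 51.7 CPM in OVT73 replicates 1 to 3 and 98.6, 41.9, 69.1 and 87.7 CPM in control replicates 1 to 4 (-0.65 ± 0.26, edgeR adjusted p = 0.64, exact permutation p = 0.17). Control replicate 2 lay among the OVT73 values. KCNK12 stood there at 51.8 ± 5.33 CPM in OVT73 and 75.5 ± 21.5 CPM in control, also overlapping (adjusted p = 0.65, exact permutation p = 0.17).

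In D1 MSN-like nuclei KCNH5 stood at 42.9, 35.2 and 31.8 CPM in OVT73 and 12.8, 23.6, 23.5 and 31.7 CPM in control. The groups did not overlap, by a narrow margin, and the log2 fold change was 0.68 ± 0.26 (edgeR adjusted p = 0.94, exact permutation p = 0.057). KCNT2 stood at 2.56 ± 0.689 CPM in OVT73 and 6.13 ± 3.98 CPM in control, with overlap (-1.22 ± 0.48, adjusted p = 0.94, exact permutation p = 0.2). In D2 the smallest p belonged to KCNC1 (37.4 ± 5.49 and 29.0 ± 5.13 CPM, exact permutation p = 0.11) and KCNMA1 (1240.3 ± 115 and 1057 ± 98.6 CPM, exact permutation p = 0.11), both with overlapping groups.

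KCNH1 was among the 2 genes of smallest p in the OPC-like, oligodendrocyte-like, astrocyte-like and neuroblast-like classes, which share their libraries. In OPC-like nuclei it stood at 30.04, 40.6 and 48.7 CPM in OVT73 and 58.8, 58.4, 71.0 and 53.7 CPM in control (-0.61 ± 0.19, edgeR adjusted p = 0.66, exact permutation p = 0.029, the smallest possible). In oligodendrocyte-like nuclei it stood at 27.2, 35.003 and 35.4 CPM in OVT73 and 55.0, 35.8, 72.8 and 47.8 CPM in control (-0.71 ± 0.23, adjusted p = 0.84, exact permutation p = 0.057). In both classes the OVT73 libraries were all below the control libraries. Genes were picked here for small p, and the share of all genes without overlap is not given. Groups that do not overlap are therefore not read as a result.

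In astrocyte-like nuclei KCNH1 stood at 18.7, 17.6 and 13.4 CPM in OVT73 and 23.5, 20.2, 50.6 and 28.4 CPM in control, again without overlap (-0.96 ± 0.33, edgeR adjusted p = 1.0, exact permutation p = 0.086). In neuroblast-like nuclei the groups overlapped (-0.85 ± 0.45), and in D1 and D2 its log2 fold changes were 0.20 ± 0.14 and 0.24 ± 0.13. The 4 MSN genes named above summed to 97.0 to 122 CPM in OVT73 and 128 to 150.4 CPM in control OPC-like nuclei. The sums were 196 to 221 and 139 to 256 CPM in oligodendrocyte-like nuclei, and 238 to 309.6 and 257 to 389 CPM in astrocyte-like nuclei. Any part of neuronal RNA in the KCNH1 values was not tested.

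KCND2 in OPC-like nuclei stood at 5099.8, 6318 and 5609 CPM in OVT73 and 4490.4, 5059, 3970.4 and 4540.4 CPM in control, all OVT73 libraries being higher (0.33 ± 0.11, edgeR adjusted p = 0.69, exact permutation p = 0.057). KCNK1 in PV/Th interneuron-like nuclei stood at 45.3, 52.3 and 30.8 CPM in OVT73 and 73.0, 107.04, 61.1 and 82.7 CPM in control, all OVT73 libraries being lower (-0.88 ± 0.25, adjusted p = 0.56, exact permutation p = 0.057). In oligodendrocyte-like nuclei, where KCNK1 was highest, its log2 fold change was 0.07 ± 0.09. KCNQ3 in PV/Th interneuron-like nuclei overlapped between groups at 339 ± 87.3 and 231 ± 81.2 CPM (exact permutation p = 0.2) and turned from 0.54 to -0.30 at the resolution of 0.6. The share of UMIs held by all channel genes in PV/Th interneuron-like nuclei was 0.980% to 1.09% in OVT73 and 0.934% to 0.975% in control (exact permutation p = 0.029). In every other named class this share overlapped between the groups. Exact permutation p for the share ran there from 0.17 (OPC-like) to 0.94 (oligodendrocyte-like). The separation in PV/Th interneuron-like nuclei is therefore not read as a result.

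The remaining genes of smallest p overlapped between groups. KCNB2 stood at 17.0 ± 6.43 CPM in OVT73 and 32.1 ± 9.47 CPM in control astrocyte-like nuclei, and KCNMA1 at 64.6 ± 3.32 and 135 ± 82.2 CPM in neuroblast-like nuclei. KCNJ3 stood at 2.27 ± 0.239 and 5.13 ± 3.37 CPM in oligodendrocyte-like nuclei. In microglia-like nuclei KCNAB2 stood at 52.0 ± 8.204 and 67.5 ± 17.8 CPM and KCNK1 at 17.0 ± 7.30 and 39.8 ± 46.2 CPM. Their exact permutation p were 0.086, 0.23, 0.17, 0.14 and 0.74 in that order.

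**Figure D5:**
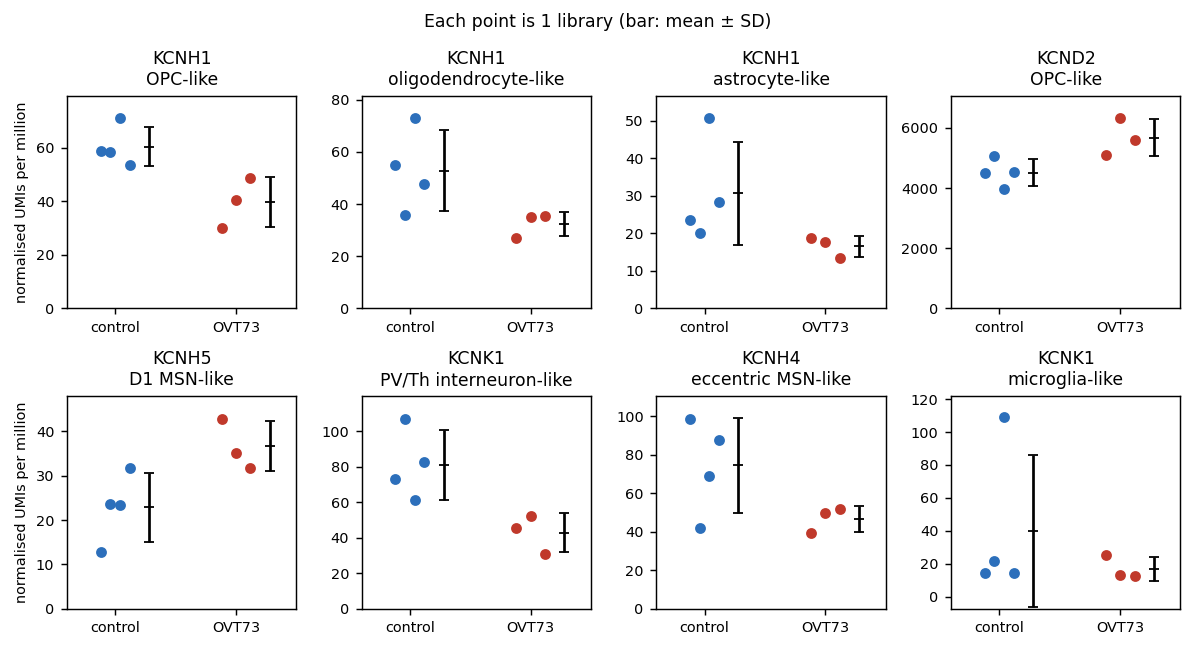
Normalised CPM (y axis) of 8 gene and class pairs in control and OVT73, with 1 point per library and a bar for the mean ± SD. The pairs were among those of smallest p in their class, so groups that do not overlap are not a result by themselves. KCNH1 is lower in every OVT73 library in OPC-like, oligodendrocyte-like and astrocyte-like nuclei, and KCND2 is higher in OPC-like nuclei. KCNK1 in microglia-like nuclei has 1 control library far above the rest.

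Whether the OVT73 effect differed between the D2 and D1 classes was tested as an interaction in 1 edgeR fit with the library as a block. No channel gene of 42 was called, with 1 at an unadjusted p under 0.05 and 0 called by DESeq2, beside 0.00787% of 12711 genes called by edgeR and 4.73% at such a p. The smallest p belonged to KCNQ3, whose effect was 0.12 ± 0.05 higher in D2 (adjusted p = 1.0).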

How the data were processed

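Nuclei were profiled with 10x Genomics 3' chemistry. Per the submitters' processing notes, Cell Ranger 7.0.0 and STAR 2.7.2a were used, and per the study's methods reads were aligned to Oar_rambouillet_v1.0 with an Ensembl annotation. The deposited matrices hold raw UMI counts per gene and barcode, which the authors had not normalised. Groups came from the prefixes of the sample titles, whose meaning the study's methods give, and replicates were numbered in accession order. Nuclei with 200 to 7500 genes and at most 5% mitochondrial UMIs were kept, and in each library the 4% scoring highest as doublets were dropped (1358 nuclei), since the automatic threshold marked only 0 to 123 per library. The study's assignment of nuclei to single animals was not used here.

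Clustering used 3000 variable genes other than the channel genes, 30 components corrected between libraries by a Harmony-type method, 20 neighbours and a resolution of 1 (scanpy 1.11.5, igraph 0.11.9). A cluster was named when at least 3 of its class's markers were raised and 1 was among its 10 leading genes, and no rival class led. This naming rule was set after the cluster profiles were seen and before any group was compared. The channel genes and lists were chosen with earlier results of these data known. Counts were summed per class and library, for classes with at least 10 nuclei in every library, and fitted with edgeR 4.0.16 (quasi-likelihood, TMM factors, its filter on low counts), with DESeq2 1.42.0 as an alternative. Adjusted p-values are from edgeR unless another tool is named. SEs of fold changes are from the fit and can understate counting error where a gene had few UMIs. Single channel genes were also tested for a difference in mean normalised CPM by exact permutation (two-sided, over the 35 ways to choose 3 of 7 libraries), for which the smallest possible p is 0.029. Depth per library was 20887378 to 70473426 UMIs. Levels were not compared between genes. For OVT73 against control, p-values measure the spread between libraries, which hold 1 or 2 sheep. In fits with the library as a block they measure how far differences between classes vary from library to library.

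Genes were named by rule: the 3 called genes with the largest fold change in each class, up to 4 in each direction between neuron classes, the 2 of smallest p per class for OVT73 against control, the 3 of highest ratio in classes too small to test, and a list known from striatal, glial or Huntington physiology. Other genes named (such as KCNA3, KCNJ9 and KCNK6) and KCNH5 between D2 and D1 were chosen after their values were seen. KCNJ10, KCNQ5, KCNK13, KCNMB3 and KCNG4 were not analysed here, and a few other channel genes that the rule names are counted but not reported here. Scripts were tested on simulated data. The alternatives tried are given at the end.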

Additional observations from a re-analysis of the deposited data

Results flagged for a closer look

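In microglia-like nuclei KCNK1 stood at 109 normalised CPM in control replicate 3, while the other control libraries held 14.1 to 21.6 CPM. The gap to the nearest of them was 0.921 of the range of the 4 control libraries. This was 1 of the 18 gene and class pairs examined in this way, and chance flags about 1 in 20 groups. In astrocyte-like nuclei the same library held 209 CPM of KCNK1, and the other control libraries 40.3 to 89.8 CPM. The source of these values was not tested.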

How the results depend on the processing

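No channel gene was called between OVT73 and control in any class under the alternatives run (no TMM factors, no filter on low counts, DESeq2, each library left out, channel genes kept in the clustering, resolution 0.6, doublet-scored nuclei kept, equal numbers of nuclei per library, and the astrocyte-like class without its DTHD1-led cluster, which was chosen after seeing the data). The same held, with nuclei numbers left as they were, for the difference of the OVT73 effect between D2 and D1. The 18 named OVT73 values had adjusted p from 0.10 to 1.0 over these settings with edgeR or DESeq2, and of them KCNQ3 in PV/Th interneuron-like nuclei changed sign (-0.30 at resolution 0.6).

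In microglia-like nuclei the 1 channel gene higher became 3 without TMM factors, 3 with no filter, 3 at resolution 0.6, and 2 with DESeq2, with channel genes in the clustering, with doublet-scored nuclei kept or without the DTHD1-led cluster. With 1 library left out it ran from 1 to 2, with 2 without OVT73 replicate 1 and 2 without control replicate 3. The other 321 counts of channel genes under alternatives stayed within 1.5 times. Without TMM factors the median of all genes moved by 0.41 (microglia-like), 0.25 (neuroblast-like), 0.22 (astrocyte-like), -0.12 (oligodendrocyte-like), -0.28 (D1), -0.27 (D2) and -0.20 (eccentric) on the log2 scale, and by 0.32 for PV/Th interneuron-like against MSN-like nuclei. Without the library block (no replicate block) D2 and D1 differed in 2 channel genes. OVT73 and control libraries came from different sheep and their titles name no pairs, so no paired analysis of the groups was possible. Median SEs of the OVT73 fold changes ran from 0.19 to 0.63 on the log2 scale by class, which limits the changes that could be detected.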
